A study of Homo sapiens with 16 samples.

Results

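The respiratory chain of mitochondria is built from subunits of 2 genomes, and its protein-coding genes were followed here in HCT116 colon cancer cells with an edited or unedited proteasome receptor and with or without depletion of the deubiquitinase OTUD5. The genes were taken by symbol from the protein-coding entries of the authors' table of TMM-scaled CPM (counts set relative to library size): the mitochondrial genes of the ND, CO, CYB and ATP series, and the nuclear genes named NDUFA, B, C, S or V with a number, SDHA to SDHD, UQCR, COX4 to COX8, and ATP5. This gave 95 genes of 22916 in the table, 13 encoded in the mitochondrial genome and 82 in the nucleus. By symbol, the nuclear genes were 38 of complex I, 4 of complex II, 9 of complex III, 13 of complex IV and 18 of complex V. The 13 mitochondrial genes were 7 of complex I, 1 of complex III, 3 of complex IV and 2 of complex V. All 95 passed the filter on low counts. The symbol rule leaves out 2 known subunits, NDUFAB1 of complex I and CYC1 of complex III, which are described with the other genes of the pathway below. NDUFA4 falls under complex I by its symbol and is known as a subunit of complex IV.

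As background, complexes I and II pass electrons from NADH and succinate to coenzyme Q, complex III passes them on to cytochrome c, and complex IV to oxygen. Complexes I, III and IV pump protons across the inner membrane, and complex V, the ATP synthase, uses their return flow to make ATP. The mitochondrial genome is transcribed by POLRMT with TFAM as long transcripts from both strands, which are cut into single RNAs mostly at the transfer RNAs between the genes. Complex II has no subunit encoded there. All other complexes need matched supply from both genomes, and unpaired subunits are known to be degraded.

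HCT116 is an established human colon carcinoma line. Its cells were unedited (labelled Control, WT below) or carried the label Rpn10 truncation, with ΔUIM in the titles (truncation below). Rpn10 is the product of PSMD4 and one of the proteasome's receptors, which binds ubiquitin chains through its ubiquitin interacting motifs. Cells of each genotype were reverse transfected with a scrambled siRNA (scramble) or a mix of 4 siRNAs against OTUD5 (knockdown), at 50 nM for 48 hours. This gave WT scramble, WT knockdown, truncation scramble and truncation knockdown groups of 4 libraries each, 16 in all. All groups share the line, the transfection reagent and the dose, and untransfected cells were not analysed here. How many edited clones were used is not given in the sources used here, so an effect of the truncation cannot be told apart from a difference between lines. The same siRNA mix was used in both genotypes, so an effect of OTUD5 depletion cannot be told apart from other effects of the mix. Per its title, the series asks how proteasome activity bears on cell type-specific expression.

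Total counts were 28777244 to 29645663 per library. OTUD5 lay between 17.4 and 22.5 CPM in the 8 knockdown libraries, among them the 4 truncation knockdown libraries whose titles say scramble, and between 83.7 and 95.9 CPM in the 8 scramble libraries. Counts over the whole PSMD4 gene do not show the edit itself. Under scramble they gave 195 to 205 CPM in truncation cells against 225 to 255 CPM in WT cells. Under knockdown they gave 309 to 340 CPM in truncation cells against 236 to 288 CPM in WT cells. WT knockdown replicate 3 stood apart by counts in 32264 genes (25626 to 27765 elsewhere). Within its group WT knockdown replicate 2 was the most distant library. Of the epithelial markers, EPCAM, KRT8, KRT18, CDH1 and CDX2 were present, EPCAM at 109 to 228 CPM, while CDX1, VIL1 and LGALS4 were at or near 0. Markers of fibroblasts, endothelium and blood stayed under 2.3 CPM in every library, except COL1A1 (31.4 to 54.7 CPM) and PTPRC (up to 11.2 CPM in 1 library). RNA came from whole cultures, so fewer mitochondria per cell and less RNA per mitochondrion cannot be told apart.

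The 250 bases upstream of the annotated start are shown for 3 nuclear genes that moved in different ways (below): UQCR11, which rose in all 4 comparisons of 2 groups, NDUFB7, which fell with knockdown in both genotypes, and NDUFC1, which rose with truncation under both siRNAs. They come from RefSeq on GRCh38.p14, are written 5′ to 3′ on the gene's own strand, and end at the base before the start. Capitals mark the relaxed NRF1 motif, GCGCA followed after any 1 base by GCGC, a core of the site of nuclear respiratory factor 1, and CCGGAAG, a core of the site of ETS factors such as GABPA, on either strand. UQCR11 lies at chr19:1605463-1605712 (minus strand), NDUFB7 at chr19:14572067-14572316 (minus strand) and NDUFC1 at chr4:139302552-139302801 (minus strand).
UQCR11: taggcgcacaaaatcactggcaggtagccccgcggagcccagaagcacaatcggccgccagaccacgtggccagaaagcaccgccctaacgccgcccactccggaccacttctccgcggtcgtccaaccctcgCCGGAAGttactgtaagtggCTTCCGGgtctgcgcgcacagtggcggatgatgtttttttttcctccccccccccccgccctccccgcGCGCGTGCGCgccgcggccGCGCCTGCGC
NDUFB7: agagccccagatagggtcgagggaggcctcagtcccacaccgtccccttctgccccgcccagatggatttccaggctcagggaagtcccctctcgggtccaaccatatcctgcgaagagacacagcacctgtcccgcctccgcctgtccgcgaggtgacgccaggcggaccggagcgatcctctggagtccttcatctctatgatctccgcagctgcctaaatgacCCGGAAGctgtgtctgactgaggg
NDUFC1: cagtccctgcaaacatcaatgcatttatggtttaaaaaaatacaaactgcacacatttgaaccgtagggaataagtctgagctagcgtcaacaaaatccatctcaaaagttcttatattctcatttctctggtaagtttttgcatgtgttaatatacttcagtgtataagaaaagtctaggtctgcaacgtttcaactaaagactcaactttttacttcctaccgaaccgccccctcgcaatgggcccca
The UQCR11 window holds 2 matches of each motif, that of NDUFB7 holds 1 ETS match, and that of NDUFC1 holds neither. Of the 82 nuclear genes, 66 were in the RefSeq table. The relaxed NRF1 motif stood upstream of 14 of the 66 (21.2%), against 5.53% of all 27305 promoters and 7.65% of protein-coding ones. CCGGAAG stood upstream of 17 of the 66 (25.8%), against 8.82% and 11.8%. The strict NRF1 motif, with T as that base, was upstream of 3 of the 66 (4.55% against 1.13% of all promoters), AAGATGGC, a YY1 core, of 1 (1.52% against 1.37%), and TCAAGGTCA, an ESRRA core, of none (0.319% of all promoters). The 2 NRF1 motifs overlap, since every strict match is also a relaxed one. Among the genes in the table that were lower with knockdown in both genotypes, 5 of 14 had the relaxed NRF1 motif and 4 of 14 had CCGGAAG. For those higher with truncation under both siRNAs these were 2 of 5 and 1 of 5, and for the other nuclear genes 7 of 47 and 12 of 47. A match describes these letters only and shows no binding.

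Levels were set side by side per kilobase of exon, with the length taken as the union of all annotated exons of a gene. For a gene with several transcripts this can exceed the length of its mRNA, which lowers its value. In WT scramble cells the mitochondrial genes had a median of 2176 CPM per kb and the nuclear ones 21.5 CPM per kb. MT-ATP6, a subunit of the proton channel of complex V, had the highest level (6841 CPM per kb), and MT-ATP8 the lowest of the mitochondrial set (1014 CPM per kb). Among the nuclear genes, ATP5F1B, the catalytic beta subunit of complex V, was highest at 427 CPM per kb and COX7A1 lowest at 0.1998 CPM per kb. Median levels of the nuclear genes were 18.6 CPM per kb in WT knockdown and, in truncation cells, 23.5 under scramble and 20.2 under knockdown. Counts of 25 nuclear genes were under a mean log2 CPM of 5. Of these 25, 19 share at least 10% of their exon bases with another gene, against 13 of the 57 nuclear genes above that level. NDUFV2 (300 counts over the 16 libraries, 3999 on its pseudogene) and SDHA (2020 counts, 14517 on its pseudogenes) are uncertain, since reads could be split with near-identical copies. Whether low levels of such genes come from the counting was not tested.

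Of the 13 mitochondrial mRNAs, 8 were lower in truncation than in WT cells under scramble siRNA and 5 were lower after knockdown in WT cells, while in truncation cells knockdown raised 2. Their summed level was 35482, 41681, 30574 and 46259 CPM in the 4 WT scramble libraries and 28783, 22036, 26863 and 34616 CPM in truncation scramble. WT knockdown libraries stood at 26794, 39308, 27085 and 32306 CPM, and truncation knockdown libraries at 31870, 24837, 35746 and 31271 CPM. The highest sums were those of WT scramble replicates 4 and 2, the lowest that of truncation scramble replicate 2, and every pair of groups overlapped. The nuclear genes summed to 8094, 7713, 7696 and 8186 CPM in WT scramble and to 7212, 7074, 6792 and 7622 CPM in WT knockdown, where all 4 libraries lay below all WT scramble ones. In truncation cells the nuclear sums were 7692, 7839, 7864 and 8302 CPM under scramble and 7812, 7563, 7237 and 6726 CPM under knockdown, which overlapped. The ratio of the mitochondrial to the nuclear sum was 4.85 ± 0.80 (SD, n = 4) in WT scramble, 4.37 ± 0.82 in WT knockdown and, in truncation cells, 3.53 ± 0.57 under scramble and 4.24 ± 0.73 under knockdown.

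**Figure D1:**
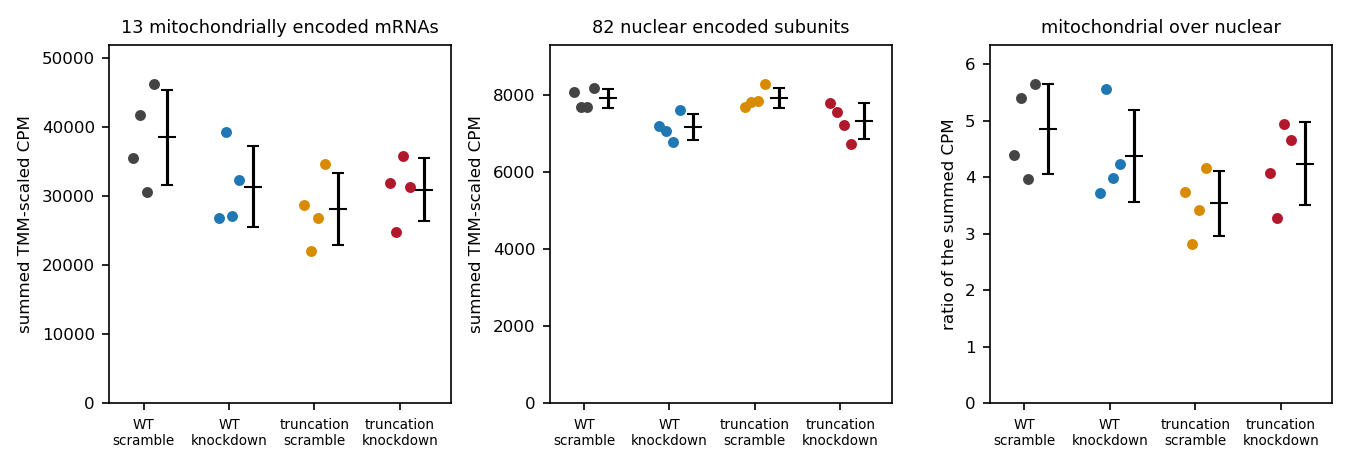
Summed TMM-scaled CPM of the 13 mitochondrially encoded mRNAs and of the 82 nuclear encoded subunit genes, and their ratio, for each of the 16 libraries (points) with the mean and SD of each group of 4 (bar beside the points). Mitochondrial sums run from 22036 to 46259 CPM and overlap between all groups, while the nuclear sums of WT knockdown all lie below those of WT scramble.

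Each mitochondrial mRNA was tested with edgeR's quasi-likelihood test, adjusted over all 17104 genes tested, with a call at an adjusted p under 0.05. Separate cultures are not named for the biological replicates, and p-values then reflect only how far these libraries scatter. The 13 mRNAs also moved together between libraries. In its group, WT knockdown replicate 2 was highest for each of them, and truncation scramble replicate 2 lowest. Counts out of 13 are therefore not counts of separate observations. Values after ± are standard errors of the log2 fold change unless named as SD. For truncation under scramble, 8 of 13 fell and none rose (61.5% called, against 44% of all genes tested; median log2 fold change -0.45, against -0.02 for all genes). MT-CO3, a core subunit of complex IV, stood at 3638, 4152, 3094 and 4800.0 CPM in WT scramble and 2573, 2076, 2450.0 and 3380.0 CPM in truncation scramble. Its truncation libraries lay lower, with replicate 4 inside the WT range. The change was -0.58 ± 0.13 on the log2 scale (adjusted p = 0.000786, edgeR). MT-ND4 of complex I changed by -0.57 ± 0.14 (from 4904, 6181, 4455 and 6841 CPM to 3859, 2892, 3579 and 4724 CPM), again with overlap through replicate 4 of the truncation group. MT-ATP6 changed by -0.52 ± 0.15, and its call was lost without truncation scramble replicate 2. The 28 annotated pseudogenes of MT-ATP6 took 144434 counts together over the 16 libraries, 8.31% of the 1737466 counts of the gene itself. MT-CO1 (-0.47), MT-CO2 (-0.49), MT-ATP8 (-0.47), MT-ND5 (-0.42) and MT-ND6 (-0.45) fell too, so that all 3 complex IV and both complex V mRNAs were among those called. MT-ND6 is the only mRNA of this set on the opposite strand, and its call was lost without WT scramble replicate 4 or without truncation scramble replicate 2. The number called was 5 and 4 when those libraries were left out in turn.

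Knockdown in WT cells lowered 5 of the 13 (38.5%, against 50.3% of all genes; median -0.32, against 0.01). The 5 were MT-CO1, MT-CO2 and MT-CO3 of complex IV, MT-ND4 and MT-ATP6. MT-CO2, which holds the site where cytochrome c hands over electrons, stood at 4449, 4914, 3667 and 5464 CPM in WT scramble and 3199, 4093, 2913 and 3630.0 CPM in WT knockdown. The groups overlapped through WT knockdown replicate 2 and WT scramble replicate 3, and the change was -0.42 ± 0.13 (adjusted p = 0.00735, edgeR). The number called depended on single libraries: it was 1 without WT scramble replicate 2 or 4, or without WT knockdown replicate 1 or 3, and it was 8 without WT scramble replicate 3 and 10 without WT knockdown replicate 2. DESeq2 called 1 of the 13. The median was -0.21 without WT scramble replicate 4. MT-ND3 and MT-CYB had values of 0.04 ± 0.12 and -0.03 ± 0.13 in this comparison, and neither passed the test.

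In truncation cells knockdown raised MT-ND1 and MT-CYB and lowered none (15.4%, against 56.7% of all genes; median 0.11, against 0.02). MT-CYB, the cytochrome b of complex III (mitochondrial genome, 14747 to 15887), stood at 2169, 1657, 2001 and 2530.0 CPM in truncation scramble and 2907, 2243, 3269 and 2860.0 CPM in truncation knockdown. Replicate 2 was lowest in both groups, and the knockdown replicate 2 lay inside the scramble range. The change was 0.43 ± 0.14 (adjusted p = 0.00827, edgeR), and MT-ND1 changed by 0.44 ± 0.16. Without truncation scramble replicate 2 or truncation knockdown replicate 3 neither was called, and 1 was called without truncation scramble replicate 3 or truncation knockdown replicate 1 or 4. Leaving out 1 library moved the median between -0.01 (without truncation scramble replicate 2) and 0.22 (without truncation scramble replicate 4). For truncation under knockdown none of the 13 passed edgeR's test (0 at an unadjusted p under 0.05, 0 by DESeq2 and 0 by limma-voom, against 45.5% of all genes called; median -0.05, or 0.11 without WT knockdown replicate 2 and 0.04 without truncation knockdown replicate 2). The difference between the knockdown effects in truncation and in WT cells, the interaction, was positive for all 13 (0.11 to 0.55, median 0.45 against -0.01 for all genes). Since the mRNAs moved together between libraries, these 13 values are not separate observations. None passed edgeR's adjusted test (smallest adjusted p = 0.0975), 7 had an unadjusted p under 0.05, and DESeq2 and limma-voom called 0, against 5.69% of all genes called. Without the filter on low counts 11 of the 13 passed, and 5 passed without WT knockdown replicate 2. No mitochondrial mRNA had non-overlapping libraries in any comparison of 2 groups, a state that 36.6% to 53.9% of all genes reached. Their spread within a group was wide: the median SD was 0.27 on the log2 scale, against 0.09 for the 57 nuclear genes and 0.09 for all 6281 genes at a mean log2 CPM of at least 5.

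The make-up of the mitochondrial mRNA pool was described apart from its size. As a share of the counts of the 13 mRNAs, which does not depend on the scaling between libraries, MT-CYB took 6.86%, 6.70%, 6.81% and 6.78% in the WT scramble libraries. Its share was 7.86%, 8.29%, 8.04% and 8.22% in WT knockdown, 7.54%, 7.52%, 7.45% and 7.31% in truncation scramble, and 9.12%, 9.03%, 9.15% and 9.15% in truncation knockdown. The 4 groups did not overlap, in the order WT scramble, truncation scramble, WT knockdown, truncation knockdown. MT-ND1 took 5.04% to 5.50% in WT scramble, 5.38% to 6.46% in WT knockdown and, in truncation cells, 5.57% to 6.01% under scramble and 7.002% to 7.277% under knockdown. MT-ND2, its neighbour along the genome, ran from 5.68% to 6.03%, from 5.99% to 7.25%, from 6.65% to 6.99% and from 7.61% to 7.92% in the same order of groups. Its shares in truncation cells lay above those in WT cells under the same siRNA. MT-ND3 took 1.48% to 1.73% in WT scramble and 2.03% to 2.46% in the other 12 libraries. MT-CO2 went the other way, with 9.14% to 10.2% in truncation knockdown against 10.4% to 12.5% in the other 12 libraries. MT-CO3 took 9.96% to 10.4% in WT scramble and 8.94% to 9.77% in truncation scramble. These 6 genes were picked after their shares were seen, the shares carry no test, and since they sum to the whole they show unequal change only.

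**Figure D2:**
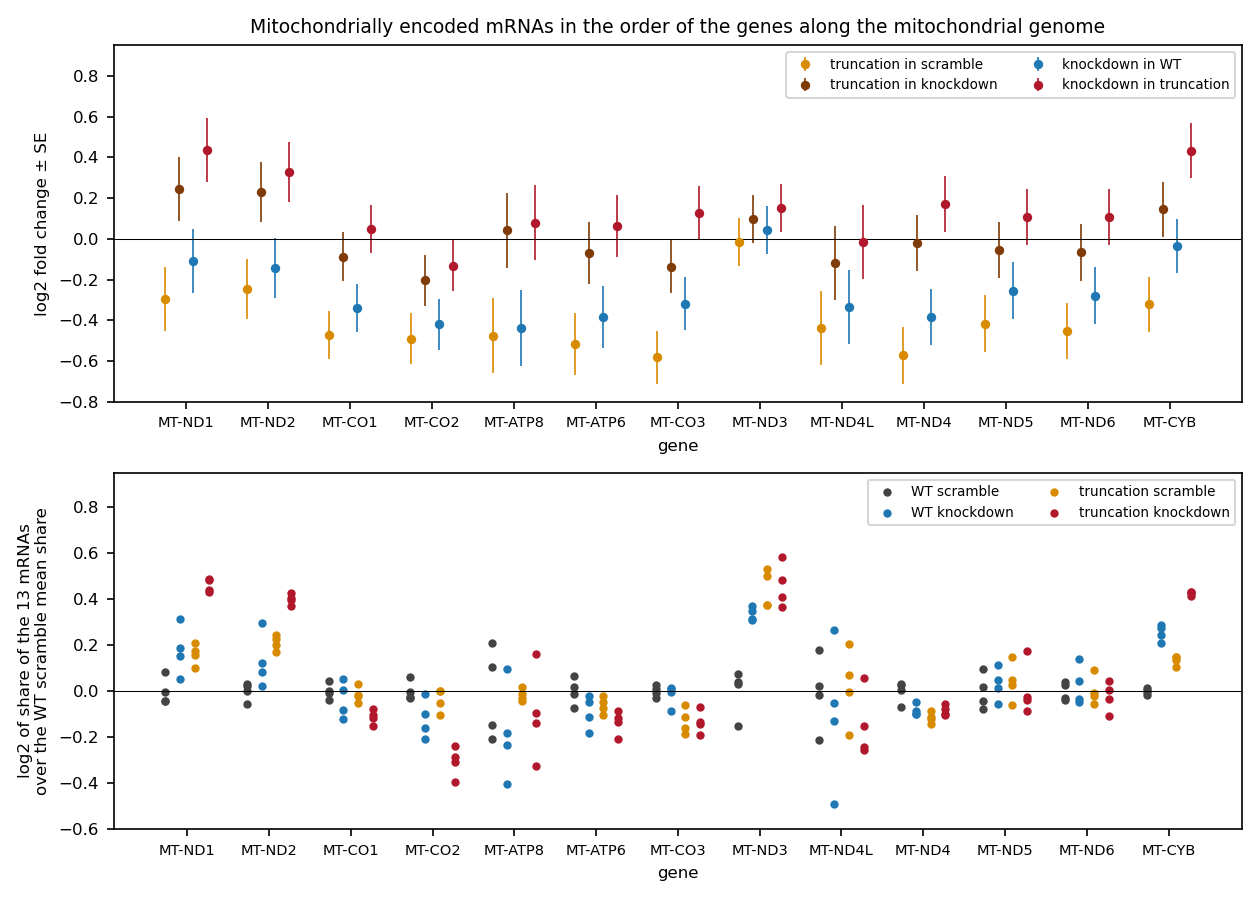
Upper panel: log2 fold change with standard error of each mitochondrially encoded mRNA, in genome order, for 4 comparisons. Lower panel: log2 of each library's share of the 13 mRNAs over the mean share in WT scramble, 4 points per group. MT-CYB separates the 4 groups, and MT-ND1 and MT-ND2 are highest in truncation knockdown.

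The ratio of mitochondrial mRNA to mitochondrial ribosomal RNA counts was 4.07 to 4.59 in WT scramble, 3.15 to 4.46 in WT knockdown and, in truncation cells, 3.29 to 3.78 under scramble and 2.98 to 3.72 under knockdown. WT scramble lay above truncation scramble without overlap. Mitochondrial transfer RNA genes had 927 to 1117 counts in WT scramble and 518 to 812 counts in the other 12 libraries. The part of these RNA classes in the results was not tested.

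The nuclear genes did not move as a block. Truncation under scramble raised 14 and lowered 9 of 82 (28.0% called, against 44% of all genes; median -0.01, against -0.02). Knockdown in WT cells raised 4 and lowered 30 (41.5% against 50.3%; median -0.14 against 0.01), and knockdown in truncation cells raised 14 and lowered 23 (45.1% against 56.7%; median 0.00 against 0.02). Truncation under knockdown raised 28 and lowered 10 (46.3% against 45.5%; median 0.12 against 0.00). Without WT knockdown replicate 3 the nuclear median was -0.08 for knockdown in WT cells and 0.06 for truncation under knockdown, and without truncation knockdown replicate 1 the latter was 0.07. By direction, the shares of all genes raised and lowered were 21.6% and 22.4% for truncation under scramble, 25.2% and 25.1% for knockdown in WT cells, 28.7% and 28.1% for knockdown in truncation cells, and 21.9% and 23.6% for truncation under knockdown. With upper-quartile scaling in place of TMM the split was 8 raised and 14 lowered for truncation under scramble, and 21 raised and 18 lowered for knockdown in truncation cells, so the balance of directions in these 2 comparisons depends on the scaling. Without WT knockdown replicates 2 and 3, truncation under knockdown raised 13 and lowered 13. Libraries did not overlap for 4 higher and 25 lower nuclear genes with knockdown in WT cells (20.3% and 21.1% of all genes, 41.4% in all) and for 9 higher and 22 lower ones with knockdown in truncation cells (26.5% and 27.4%, 53.9% in all). For truncation the counts were 15 and 9 under scramble (21% and 21.8%, 42.8% in all) and 14 and 6 under knockdown (18.1% and 18.5%, 36.6% in all).

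**Figure D3:**
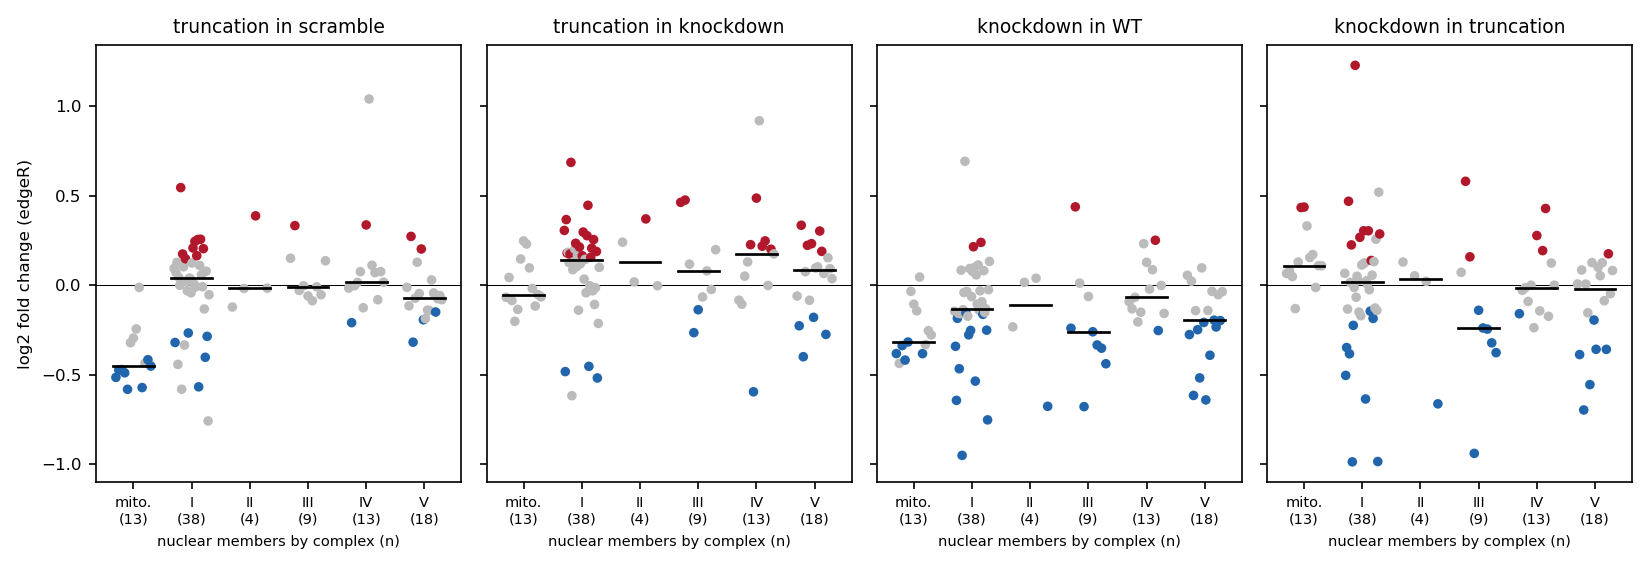
Log2 fold change of every member in 4 comparisons, for the 13 mitochondrial genes and the nuclear genes by complex. Red points rose and blue points fell at an adjusted p under 0.05, grey points did not pass, and black lines are medians. The mitochondrial genes lie below 0 with truncation under scramble, and 6 of 9 nuclear complex III genes are blue with knockdown in either genotype.

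Comparisons that share no library can be set side by side. Of the 30 nuclear genes lowered by knockdown in WT cells and the 23 lowered in truncation cells, 19 were the same (63.3% and 82.6% of the lists). Over all tested genes the shares in common were 82.8% and 73.9%. The 19 were NDUFV1, NDUFS4, NDUFA2, NDUFA10, NDUFA11, NDUFA4L2 and NDUFB7 of complex I, SDHD of complex II, UQCRC1, UQCRFS1, UQCRH, UQCRHL and UQCRQ of complex III, and ATP5F1B, ATP5F1D, ATP5MC1, ATP5MC3, ATP5ME and ATP5PB of complex V. The 4 genes raised by knockdown in WT cells were all raised in truncation cells too (28.6% of the 14 raised there, against 81.1% and 71.4% for all genes), COX7A2L, NDUFB5 and UQCR11 among them. Truncation raised 12 genes under both siRNAs (85.7% of 14 and 42.9% of 28, against 71.1% and 70.1% for all genes), among them NDUFA4, NDUFA8, NDUFB5, NDUFB9, NDUFC1, NDUFS5, SDHC, UQCR11, COX6C, ATP5F1C and ATP5MC2. It lowered NDUFA10, NDUFC2, NDUFV1, ATP5F1D, ATP5MC3 and ATP5PB under both (66.7% of 9 and 60% of 10, against 68.9% and 65.5% for all genes). No member was called in opposite directions in these pairs of comparisons, against 0.695% to 1.17% of all genes called in 1 direction in the first of each pair.

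**Figure D4:**
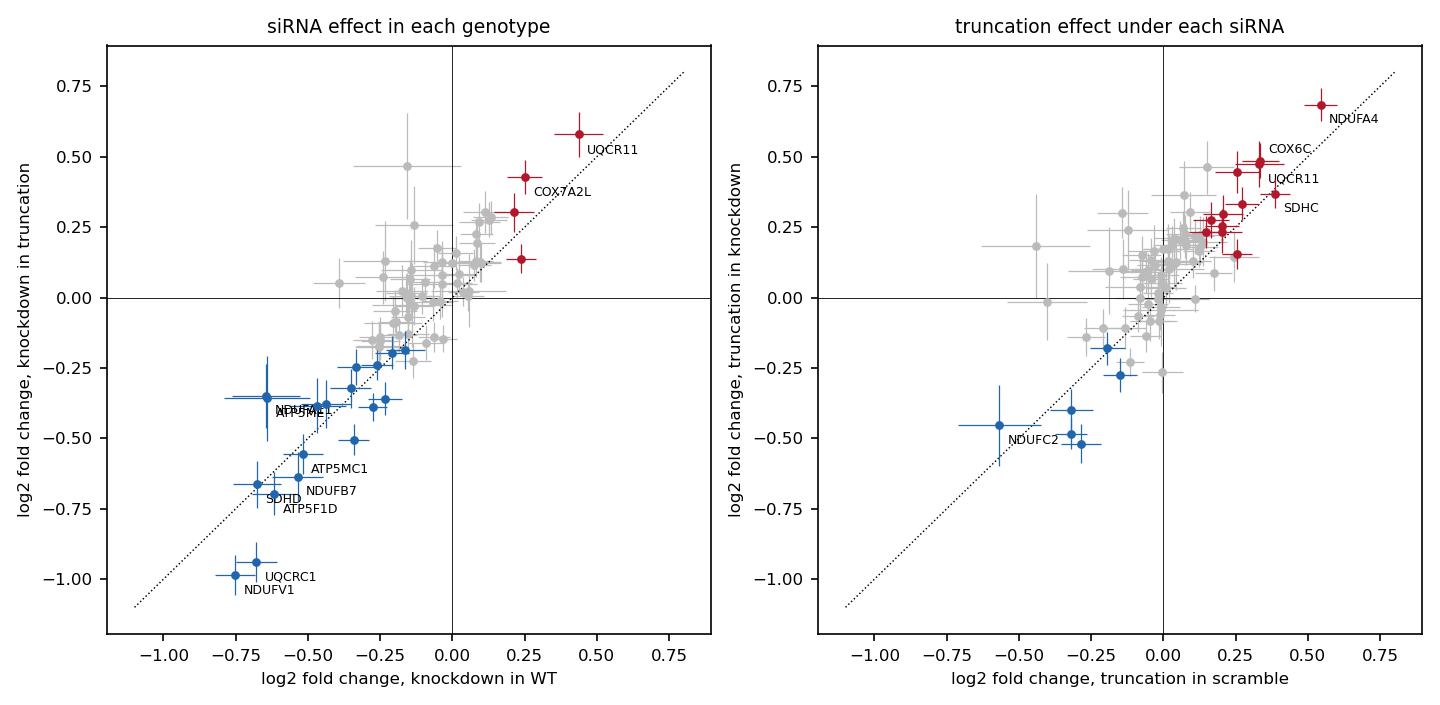
Left: knockdown effect in truncation cells (y) against that in WT cells (x). Right: truncation effect under knockdown (y) against that under scramble (x). Points are the 77 nuclear genes whose mean log2 CPM was 1 or more, bars are standard errors, the dotted line is equality, and red or blue points rose or fell in both comparisons of the panel. NDUFV1 and UQCRC1 lie furthest down on the left and NDUFA4 furthest up on the right.

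Complex I takes electrons from NADH in its peripheral arm. NDUFV1 (ENSG00000167792, chromosome 11, 67605653 to 67612554, GRCh38), the flavoprotein that binds NADH, had the largest fall of complex I in 3 of the 4 comparisons among genes whose mean log2 CPM was 1 or more. It stood at 194, 184, 169 and 181 CPM in WT scramble and 112, 91.4, 105 and 124 CPM in WT knockdown, and in truncation cells 147, 145, 146 and 159.5 CPM under scramble and 74.8, 72.2, 81.2 and 73.9 CPM under knockdown. The 4 groups did not overlap, and WT scramble was highest. Knockdown changed it by -0.75 ± 0.07 in WT cells (adjusted p = 2.94e-09, edgeR) and -0.98 ± 0.07 in truncation cells, and truncation by -0.29 ± 0.07 under scramble and -0.52 ± 0.07 under knockdown. Of its exon bases 12% are shared with AP003385.3 and C11orf72.

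Accessory subunits of complex I also split. NDUFC1, a small membrane-arm subunit, stood at 43.7, 37.6, 39.0 and 42.5 CPM in WT scramble and 44.8, 47.4, 47.5 and 54.6 CPM in truncation scramble, without overlap. Truncation raised it by 0.25 under scramble and by 0.45 under knockdown. It was at 40.8, 48.9, 40.1 and 46.3 CPM in WT knockdown and 65.8, 59.3, 57.55 and 57.1 CPM in truncation knockdown. Its truncation knockdown libraries thus also lay above its truncation scramble libraries. Of its exon bases 18.5% are shared with MGARP. NDUFB7, an accessory subunit of the membrane arm on its intermembrane space side, stood at 64.0, 55.0, 53.9 and 60.2 CPM in WT scramble and 39.8, 38.1, 33.5 and 49.4 CPM in WT knockdown, against 67.7, 67.3, 65.5 and 75.4 CPM and 45.2, 49.0, 41.4 and 42.1 CPM in truncation cells. Its knockdown libraries lay below the scramble libraries in each genotype (-0.54 ± 0.09 and -0.64 ± 0.09), while truncation under scramble raised it (0.24 ± 0.09). NDUFC2 was low, with 3.88, 3.15, 3.84 and 4.03 CPM in WT scramble and 2.42, 2.02, 2.49 and 3.11 CPM in truncation scramble. These groups did not overlap, truncation lowered it (-0.57 ± 0.14), and it shares exon bases with the read-through gene NDUFC2-KCTD14. NDUFA13 rose with knockdown in truncation cells (0.47 ± 0.19) at 1.80 to 3.24 CPM in truncation cells, a call lost in 6 of 8 fits that left out 1 library. Over the 38 genes, truncation raised 9 and lowered 5 under scramble (median 0.04; 36.8% called against 44% of all genes) and raised 15 and lowered 3 under knockdown (median 0.14; 47.4% against 45.5%). Knockdown raised 2 and lowered 12 in WT cells (median -0.14; 36.8% against 50.3%) and raised 8 and lowered 9 in truncation cells (median 0.02; 44.7% against 56.7%), so the shares called were near or under those of all genes.

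Complex II is the succinate dehydrogenase of the citric acid cycle, with catalytic subunits SDHA and SDHB and membrane anchors SDHC and SDHD. The anchors moved separately. SDHC (chromosome 1, 161314257 to 161375340) stood at 101, 104, 111 and 102 CPM in WT scramble and 103, 109.8, 107 and 109 CPM in WT knockdown, and in truncation cells 133, 138, 139 and 135 CPM under scramble and 145, 139.7, 143 and 126 CPM under knockdown. It was higher in all truncation libraries (0.39 ± 0.05 under scramble, adjusted p = 1.44e-06, edgeR, and 0.37 ± 0.05 under knockdown), and its knockdown values of 0.04 ± 0.05 and 0.02 ± 0.05 did not pass. SDHD (chromosome 11, 112086773 to 112120013) stood at 39.6, 42.8, 43.6 and 43.6 CPM in WT scramble and 26.8, 25.3, 30.0 and 23.9 CPM in WT knockdown, and at 39.4, 42.3, 43.0 and 42.9 CPM and 28.9, 26.3, 29.6 and 21.1 CPM in truncation cells. All 8 knockdown libraries lay below all 8 scramble libraries. The knockdown changes were -0.68 ± 0.08 (adjusted p = 2.83e-07, edgeR) and -0.66 ± 0.08, and the truncation values of -0.02 ± 0.08 and 0.00 ± 0.09 did not pass. SDHD shares 12.2% of its exon bases with AP002884.3 and TIMM8B. SDHB passed no test, with values from -0.02 to 0.05.

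Complex III had lower levels after knockdown in both genotypes, with 6 of 9 nuclear genes down and 1 up in WT cells (median -0.26; 77.8% called against 50.3% of all genes) and 6 down and 2 up in truncation cells (median -0.24; 88.9% against 56.7%). Truncation raised 1 and lowered none under scramble (11.1% against 44%), and raised 2 and lowered 2 under knockdown (44.4% against 45.5%). Its summed level was 747 to 837 CPM in WT knockdown against 933 to 1005 CPM in WT scramble, and 699 to 816 CPM against 931 to 1007 CPM in truncation cells, with no overlap in either genotype. UQCRC1 (ENSG00000010256, chromosome 3, 48599002 to 48610976), a large core protein on the matrix side, stood at 298, 278, 268 and 305 CPM in WT scramble and 192, 153, 169 and 203 CPM in WT knockdown. In truncation cells it stood at 283, 279.7, 280.3 and 302 CPM under scramble and 147, 158, 157 and 134 CPM under knockdown. Knockdown libraries were lower without overlap in both genotypes, with changes of -0.68 ± 0.07 (adjusted p = 2.39e-08, edgeR) and -0.94 ± 0.07. In truncation cells the mean of UQCRC1 went from 286 to 149 CPM, and that of the complex III sum from 957 to 771 CPM. The fall of the sum in these cells was thus mostly that of 1 gene. The partner core protein UQCRC2 had -0.06 ± 0.05 and -0.14 ± 0.05, of which only the value in truncation cells passed. UQCRFS1, the Rieske iron-sulfur protein, fell in both (-0.26 ± 0.05 and -0.24 ± 0.05). UQCRH, the hinge protein, changed by -0.33 and -0.25 and its near-identical copy UQCRHL by -0.35 and -0.32, but reads of these copies may be split between them. They may then not count as separate genes among the 6 lowered. UQCR11, a small accessory subunit, rose in all 4 comparisons. It stood at 11.9, 10.1, 12.6 and 13.2 CPM in WT scramble and 16.5, 16.9, 14.5 and 16.9 CPM in WT knockdown, and in truncation cells 14.9, 14.9, 14.7 and 15.7 CPM under scramble and 24.1, 24.0, 21.4 and 20.4 CPM under knockdown. WT scramble libraries were lowest and truncation knockdown libraries highest, each without overlap with any other group. Its changes were 0.44 ± 0.08 and 0.58 ± 0.08 with knockdown and 0.33 ± 0.08 and 0.47 ± 0.08 with truncation, and 10.9% of its exon bases are shared with AC005943.1.

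In complex IV, 1 of 13 nuclear genes rose and 1 fell for truncation under scramble (15.4% called, against 44% of all genes) and likewise for knockdown in WT cells (15.4% against 50.3%). Knockdown in truncation cells raised 3 and lowered 1 (30.8% against 56.7%), and truncation under knockdown raised 5 and lowered 1 (46.2% against 45.5%). NDUFA4, a complex IV subunit counted under complex I by its symbol (chromosome 7, 10931951 to 10940256), stood at 81.5, 77.5, 75.8 and 77.4 CPM in WT scramble and 114, 113, 115 and 114 CPM in truncation scramble, and at 83.8, 83.3, 77.8 and 85.8 CPM and 151, 132, 126 and 122 CPM under knockdown. Every truncation library was above every WT library. The truncation changes were 0.54 ± 0.06 (adjusted p = 3.64e-08, edgeR) and 0.68 ± 0.06. COX6C, a small accessory subunit, stood at 52.9, 52.6, 51.7 and 52.5 CPM in WT scramble and 60.7, 63.7, 68.8 and 71.3 CPM in truncation scramble, and at 56.8, 58.4, 52.7 and 61.0 CPM and 88.4, 77.8, 80.0 and 74.3 CPM under knockdown. Truncation libraries were higher than WT libraries under both siRNAs (0.34 ± 0.06, adjusted p = 0.000117, edgeR, and 0.49 ± 0.06), and knockdown raised it in truncation cells (0.28 ± 0.06). COX7A2L, known as a factor that joins complexes III and IV into supercomplexes, stood at 72.7, 72.0, 73.7 and 77.2 CPM in WT scramble and 88.6, 84.9, 90.5 and 87.7 CPM in WT knockdown. It was at 74.4, 76.2, 77.9 and 81.7 CPM in truncation scramble and 114, 112, 99.2 and 92.3 CPM in truncation knockdown, with all knockdown libraries above the scramble libraries of their genotype. The changes were 0.25 ± 0.06 and 0.43 ± 0.06 with knockdown. COX5A, a matrix-side subunit, fell with truncation under scramble (-0.21 ± 0.07), and COX7B fell with knockdown in WT cells (-0.25 ± 0.08). The COX7B call was lost without WT knockdown replicate 3, whose 34.7 CPM lay apart from the 45.9 to 46.5 CPM of the other 3, and without WT scramble replicate 4. The COX5A call was lost without truncation scramble replicate 1 or 3.

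Several complex IV subunits come as tissue isoforms, and the common forms prevailed. COX4I1, the widely expressed form of subunit 4, was at 347 to 455 CPM, while COX4I2 had 16 counts over the 16 libraries and is not in the CPM table. COX6A1 was at 8.32 to 13.3 CPM, with 2495 counts on its pseudogenes against 5404 of its own, and the muscle form COX6A2 had 0 counts. COX7A2 ran from 95.1 to 139.7 CPM and the muscle form COX7A1 from 0.0679 to 0.581 CPM. COX6B1 ran from 104 to 142 CPM and the testis form COX6B2 from 0.871 to 1.94 CPM. COX8A was at 19.7 to 30.7 CPM, against 6 counts over all libraries for COX8C, and COX7B2 had 0 counts. NDUFA4L2, a paralogue of NDUFA4 known as a hypoxia-induced gene, was at 0.309 to 1.42 CPM. Knockdown lowered it in WT (-0.95 ± 0.26) and truncation cells (-0.99 ± 0.28), with no overlap between libraries. COX7A2 rose with knockdown in truncation cells (0.19 ± 0.06) and with truncation under knockdown (0.22 ± 0.06), both calls lost without truncation knockdown replicate 1. In all, the first call was lost in 4 of 8 fits that left out 1 library. The second was also lost without WT knockdown replicates 2 and 3 together. COX4I1 fell with knockdown in truncation cells (-0.16 ± 0.06), which did not hold with upper-quartile scaling or in 3 of 8 fits that left out 1 library.

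Complex V had 10 of 18 nuclear genes lowered and none raised by knockdown in WT cells (median -0.20; 55.6% called against 50.3% of all genes), and 6 lowered and 1 raised in truncation cells (median -0.02; 38.9% against 56.7%). Truncation raised 2 and lowered 3 under scramble (27.8% against 44%) and raised 5 and lowered 4 under knockdown (50% against 45.5%). Its summed level was 2746 to 3061 CPM in WT knockdown against 3177 to 3331 CPM in WT scramble, and 2522 to 2934 CPM against 3047 to 3277 CPM in truncation cells. The catalytic head is built of alpha and beta subunits around a stalk. ATP5F1D (chromosome 19, 1241746 to 1244826), the delta subunit of the central stalk, stood at 162, 137, 132 and 152 CPM in WT scramble and 97.0, 83.0, 88.5 and 112 CPM in WT knockdown. In truncation cells it was at 116, 112, 113 and 127 CPM and 76.1, 71.9, 70.3 and 70.0 CPM. WT scramble libraries were highest and truncation knockdown libraries lowest, each apart from all other groups. Knockdown changed it by -0.62 ± 0.08 (adjusted p = 2.73e-07, edgeR) and -0.70 ± 0.08, and truncation by -0.32 ± 0.08 and -0.40 ± 0.08. ATP5F1C, the gamma subunit of the same stalk, was at 163, 164, 175 and 173 CPM in WT scramble and 199.5, 208, 201 and 206 CPM in truncation scramble, all higher. Truncation raised it (0.27 ± 0.06 and 0.33 ± 0.06), and its knockdown values of 0.02 ± 0.06 and 0.08 ± 0.06 did not pass. Of the head, the beta gene ATP5F1B fell with knockdown (-0.28 ± 0.05 and -0.39 ± 0.05), while the alpha gene ATP5F1A had values of 0.05 ± 0.05 and 0.01 ± 0.05 that did not pass. In truncation cells the mean of ATP5F1B went from 916 to 700 CPM with knockdown, and that of the complex V sum from 3130 to 2783 CPM. Much of the fall of the sum in these cells was thus that of 1 gene.

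The rotor ring of complex V is made of subunit c, whose identical mature protein is encoded by ATP5MC1, ATP5MC2 and ATP5MC3. ATP5MC1 stood at 151, 144, 141 and 167 CPM in WT scramble and 104, 96.0, 101 and 119.7 CPM in WT knockdown, and at 137, 144, 146 and 156 CPM and 109, 98.1, 98.04 and 91.0 CPM in truncation cells. All 8 knockdown libraries were below all 8 scramble libraries (-0.52 ± 0.07 in WT, adjusted p = 9.59e-07, edgeR, and -0.56 ± 0.07 in truncation cells). ATP5MC3 fell in all 4 comparisons, with changes of -0.21 and -0.20 with knockdown and -0.19 and -0.18 with truncation. Its call for knockdown in WT cells was lost without WT knockdown replicates 2 and 3 together. That for truncation under scramble was lost without truncation scramble replicate 1. That for truncation under knockdown was lost without WT knockdown replicate 4 or truncation knockdown replicate 4. ATP5MC2 rose with truncation (0.20 ± 0.07 and 0.23 ± 0.07), but the call under scramble was lost with upper-quartile scaling and in 3 of 8 fits that left out 1 library, and the call under knockdown without WT knockdown replicate 3 or truncation knockdown replicate 2. ATP5ME, a membrane subunit, fell with knockdown (-0.64 ± 0.15 and -0.36 ± 0.15) at 2.28 to 5.69 CPM, but 61.6% of its exon bases overlap MYL5 on the opposite strand. Its call in truncation cells was lost with upper-quartile scaling, with limma-voom and in 4 of 8 fits that left out 1 library. ATP5IF1, the inhibitor that blocks the enzyme from running backwards, fell with knockdown in WT cells (-0.25 ± 0.07) and rose with truncation under knockdown (0.22 ± 0.07). Both ATP5IF1 calls were lost without WT knockdown replicates 2 and 3, and the second also without replicate 3 alone. Knockdown in truncation cells gave ATP5IF1 a value of -0.155 (adjusted p = 0.0518, edgeR). That value did not pass in the main fit but did in 10 of 15 alternatives. The ATP5IF1 interaction was 0.094 (adjusted p = 0.639, edgeR), so no difference between the genotypes was shown. ATP5PD, a peripheral stalk subunit, rose with knockdown in truncation cells (0.17 ± 0.07), a call lost in 6 of 8 fits that left out 1 library.

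ATP5MG, a membrane subunit, was the only nuclear gene of the 82 with a called interaction (5.69% of all genes were called, 2.05% higher and 3.65% lower). It stood at 12.5, 11.1, 12.3 and 13.1 CPM in WT scramble and 8.54, 10.99, 8.25 and 9.64 CPM in WT knockdown, and at 11.1, 11.5, 11.1 and 10.8 CPM in truncation scramble and 12.7, 11.5, 11.5 and 10.46 CPM in truncation knockdown. Knockdown libraries were lower in WT cells without overlap, and in truncation cells the groups overlapped. The knockdown effect was -0.39 ± 0.09 in WT and 0.05 ± 0.09 in truncation cells, and the difference 0.44 ± 0.13 (adjusted p = 0.0367, edgeR). The call was lost in 12 of 16 fits that left out 1 library. For the other 81 nuclear genes no difference between the genotypes' knockdown effects passed, which does not show that the effects were equal (median difference 0.09).

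**Figure D5:**
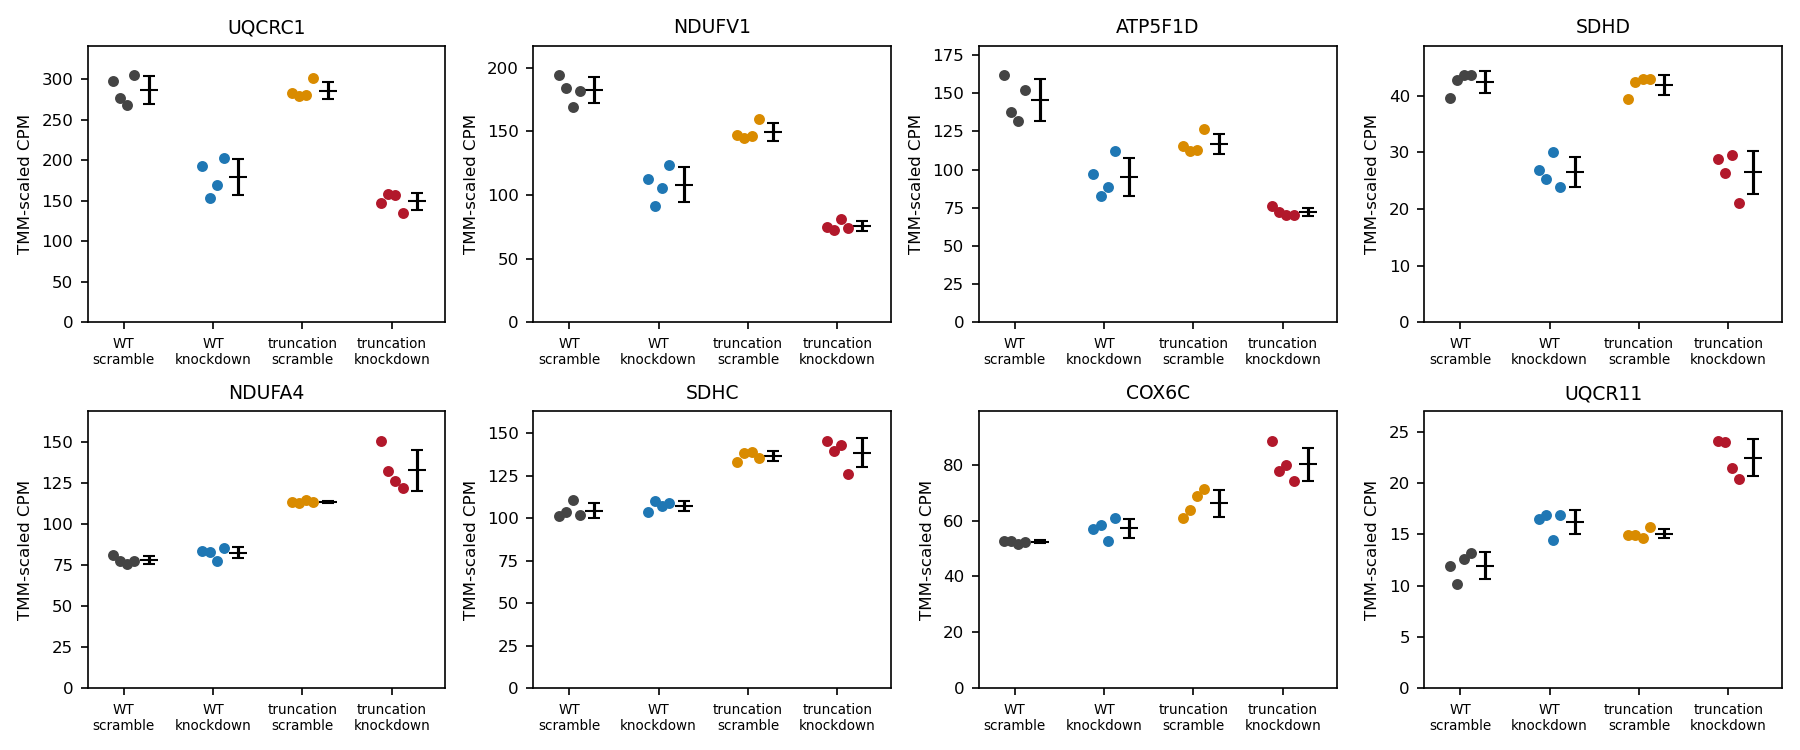
TMM-scaled CPM of 8 nuclear genes in each of the 16 libraries (points), with the mean and SD of each group of 4. UQCRC1, NDUFV1, ATP5F1D and SDHD (upper row) are lower in the knockdown libraries of both genotypes, and NDUFA4, SDHC, COX6C and UQCR11 (lower row) are higher in the truncation libraries under each siRNA.

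Other genes of the pathway were taken from lists. Of 20 electron carriers and coenzyme Q genes, knockdown raised 4 and lowered 11 in WT cells and raised 5 and lowered 10 in truncation cells (medians -0.21 and -0.24; 75% called in each, against 50.3% and 56.7% of all genes). NDUFAB1, the acyl carrier protein that is also a subunit of complex I, changed by -1.54 and -1.74 on the log2 scale, further than any of the 82 nuclear members. CYC1, the cytochrome c1 of complex III, changed by -0.48 and -0.57, and CYCS, cytochrome c itself, by -0.26 and -0.43. COQ2, which attaches the side chain in coenzyme Q synthesis, changed by -1.39 and -1.48. Truncation raised 7 and lowered 7 of the 20 under scramble (70% against 44%). Among those raised under scramble were COQ10B at 0.67 ± 0.07 and COQ8B at 0.60 ± 0.07. Under knockdown, truncation raised 6 and lowered 4 (50% against 45.5%).

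Of 54 assembly factors, knockdown raised 11 and lowered 18 in WT cells and raised 13 and lowered 14 in truncation cells (medians -0.11 and 0.01). The shares called, 53.7% and 50%, were near the 50.3% and 56.7% of all genes. FOXRED1, a complex I assembly factor, changed by -1.18 and -1.52, NDUFAF3 by -0.68 and -0.78, and TTC19 of complex III by -0.46 and -0.65. UQCC1, which acts in cytochrome b synthesis, rose by 0.57 and 0.74. Truncation raised the complex IV factors COX17 (0.38 ± 0.07) and COA3 (0.50 ± 0.07), a copper chaperone and a translation regulator of MT-CO1, and lowered BCS1L (-0.46 ± 0.06), which inserts the Rieske protein. In all it raised 13 and lowered 8 under scramble (38.9% against 44%), and raised 18 and lowered 9 under knockdown (50% against 45.5%).

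Of 33 measured genes that copy, transcribe or process mitochondrial DNA and RNA, truncation raised 4 and lowered 14 under scramble and raised 3 and lowered 16 under knockdown (medians -0.14 and -0.19; 54.5% and 57.6% called, against 44% and 45.5% of all genes). Knockdown raised 4 and lowered 13 in WT (51.5% against 50.3%) and raised 6 and lowered 16 in truncation cells (66.7% against 56.7%). TFAM, which packages and transcribes mitochondrial DNA, fell in all 4 comparisons, with changes of -0.23 and -0.47 with truncation and -0.34 and -0.58 with knockdown. POLRMT, the mitochondrial RNA polymerase, fell with knockdown (-0.43 ± 0.07 and -0.67 ± 0.07), and its value for truncation under scramble was 0.04 ± 0.07, which did not pass. ELAC2, which cuts the 3′ ends of transfer RNAs, changed by -0.56 and -0.75 with knockdown. Of the complex that stabilises mitochondrial mRNAs, LRPPRC fell with truncation (-0.23 ± 0.05 and -0.32 ± 0.05) and SLIRP fell in all 4 comparisons (-0.34 and -0.22 with truncation, -0.42 and -0.30 with knockdown). Of 76 mitochondrial ribosomal protein genes, knockdown lowered 28 and raised 8 in WT and lowered 29 and raised 11 in truncation cells. The shares called in either direction, 47.4% and 52.6%, were near those of all genes, 50.3% and 56.7%. By direction, knockdown lowered 25.1% and raised 25.2% of all genes in WT cells. In truncation cells these shares of all genes were 28.1% and 28.7%. The medians of the ribosomal protein genes were -0.13 and -0.10, against 0.01 and 0.02 for all genes.

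Of 10 measured transcriptional regulators, truncation lowered 6 and raised none under each siRNA (60% called, against 44% and 45.5% of all genes). Knockdown raised 4 and lowered 4 in WT (80% against 50.3%) and raised 5 and lowered 4 in truncation cells (90% against 56.7%). PPARGC1B, a coactivator of mitochondrial genes, changed by -0.70 with truncation under scramble and -0.61 with knockdown in WT cells. ESRRA, a nuclear receptor it binds, changed by -0.36 and -0.63. GABPA, the ETS factor, rose with knockdown (0.61 ± 0.07 and 0.52 ± 0.07). NRF1, meaning nuclear respiratory factor 1 and not NFE2L1, had values of -0.06 ± 0.06 for truncation under scramble and 0.02 ± 0.06 for knockdown in WT cells, which did not pass, and changed by -0.17 with truncation under knockdown. MYC had a called interaction (-0.30 ± 0.07). Of 14 citric acid cycle genes, knockdown lowered 5 in WT (35.7% against 50.3% of all genes) and 7 in truncation cells (50% against 56.7%) and raised none. OGDH, a subunit of the oxoglutarate dehydrogenase, changed by -0.35 in WT and -0.85 in truncation cells, and the difference passed (-0.50 ± 0.08), as did that of the citrate synthase CS (-0.24 ± 0.07).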

How the data were processed

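Gene-level RNA-seq was made from total RNA of HCT116 cells by a vendor's method derived from Nextera-XT, per the labels; how mRNA was selected is not given in the sources used here. STAR 2.7.3a, DESeq2, edgeR, limma and hg38 stand in the submitters' processing notes without roles, and the counting program, annotation and strand setting are not given. The authors deposited whole-number read counts for 60668 genes. Their second table holds a scaled signal, CPM multiplied by a TMM factor per the values, deposited for 22916 genes. It was used to select the genes. CPM values of the epithelial and other cell type markers are counts over the library total, without a TMM factor. The other CPM values printed here were computed from the counts with the edgeR filter and TMM scaling described below.

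Counts were tested with edgeR 4.0.16 (R 4.3.3): filterByExpr over the 4 groups, TMM scaling, a quasi-likelihood fit of all 16 libraries without covariates, and Benjamini-Hochberg adjustment over the 17104 genes tested. The 5 comparisons were truncation under each siRNA, knockdown in each genotype, and their interaction. Standard errors are the log2 fold change over the square root of F. Total counts were 28777244 to 29645663 per library. Alternatives were upper-quartile scaling, scaling without mitochondrial genes, DESeq2 1.42.0, limma-voom (limma 3.58.1), no low count filter, the replicate number as a block, fits of only the 2 groups compared, leaving out each library, and, added after seeing the data, leaving out WT knockdown replicates 2 and 3 together. The procedure was tested on simulated data.

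The members and gene lists were chosen with earlier results of these data known. Members were named by rule: per comparison of 2 groups, up to 3 called mitochondrial genes with the largest changes and the called nuclear gene with the largest rise and fall in each complex (mean log2 CPM 1 or more), any called interaction among the largest, MT-ND6, ATP5IF1, COX7A2L and the isoform list. Other members and pathway genes given with values were chosen after those values were seen. Gene positions are from GENCODE v29 on GRCh38. Of the genes the rule names, 1 is not reported here, though counts over the members include it.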

Additional observations from a re-analysis of the deposited data

Results flagged for a closer look

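In 172 groups of 4 libraries checked for a library set apart from the other 3 by Dixon's criterion, 9 met it, where chance gives about 1 in 20 groups. WT knockdown replicate 3 was lowest for COX7B (34.67 CPM, the others 45.87 to 46.51) and for UQCR11 (14.47 CPM, the others 16.54 to 16.89). Truncation scramble replicate 4 was highest for UQCRC1 (301.6 CPM, the others 279.7 to 283.3) and for COX6B1 (140.3 CPM, the others 128.0 to 129.3). Truncation knockdown replicate 2 was lowest for MT-ND6 (639.6 CPM, the others 843.4 to 874.7) and for the ratio of mitochondrial mRNA to ribosomal RNA counts (2.985, the others 3.602 to 3.717). WT knockdown replicate 1 was lowest for ATP5F1C (166.9 CPM, the others 172.4 to 173.5). In truncation knockdown NDUFA4L2 was highest in replicate 3 (0.6934 CPM, the others 0.3089 to 0.335) and UQCRHL in replicate 1 (39.46 CPM, the others 37.15 to 37.45). The knockdown effect on ATP5MG differed between the genotypes by 0.444 on the log2 scale in edgeR's interaction test.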

How the results depend on the processing

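Among the genes named by rule no called value reversed its direction under the alternatives run. Of their 77 calls, 50 held under every alternative and 27 were lost under at least 1. Of their results not called in the main fit, 35 were called under at least 1 alternative. Among these 35 were the interactions of UQCRC1 and NDUFV1, called without WT knockdown replicate 2, alone or together with replicate 3. Another was ATP5F1C for knockdown in truncation cells, called with upper-quartile scaling and without truncation knockdown replicate 4. For the mitochondrial mRNAs with knockdown in WT cells, DESeq2 called 1 and the fit without a low count filter 9, and leaving out 1 library gave 1 to 10. With knockdown in truncation cells these were 1, 4 and 0 to 3. For truncation under scramble leaving out 1 library gave 4 to 11. For truncation under knockdown no filter gave 3, leaving out WT knockdown replicates 2 and 3 gave 1, and leaving out 1 library gave 0 to 2 (2 without WT knockdown replicate 2). For the mitochondrial interaction these were 11, 1 and 0 to 5. For the nuclear interaction they were 0, 4 and 0 to 3 (3 without WT knockdown replicate 2), and its median moved from 0.089 to 0.019 without both WT knockdown libraries. Nuclear counts ranged with 1 library left out from 17 to 24 and 28 to 41 for truncation under scramble and knockdown, and from 30 to 42 and 31 to 39 for knockdown in WT and truncation cells. Without WT knockdown replicate 3, truncation under knockdown raised 17 and lowered 11. Without both WT knockdown libraries the nuclear counts were 24 for knockdown in WT cells and 26 for truncation under knockdown. With the replicate block, nuclear calls were 23, 40, 41, 39 and 1 and mitochondrial calls 8, 6, 2, 0 and 0 for truncation under scramble, knockdown in WT, knockdown in truncation, truncation under knockdown and the interaction. The sources used here name no pairing of same-numbered libraries. Over 24 same-numbered pairs the correlation of deviations ran from -0.279 to 0.398. In 10 of the 24 the correlation was highest between the same numbers. Whether libraries of the same number were handled together cannot be told from these values. The cause of these shifts was not tested.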
